A study of Homo sapiens with 10 samples.

Results

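The genes described here are 10 genes of the endothelial and blood lineages, namely KDR, PECAM1, CDH5, TEK, ETV2, TAL1, LMO2, GATA1, HBZ and HBE1, taken by name from the 64940 genes kept from the deposited RNA sequencing table. They were followed in 4 libraries from the human embryonic stem cell (hESC) line H9, 2 control libraries and 2 libraries overexpressing the germ cell RNA-binding protein DAZL (oeDAZL). The sample labels give the control cells as SD cells of wt genotype that had differentiated spontaneously, and the oeDAZL cells as hPGCLCs, that is, cells resembling human primordial germ cells (PGCs). The design text of the series instead names the controls WT PGCLCs, and the study also describes its control and oeDAZL RNA sequencing samples as hPGCLCs. In the methods of the study, overexpression cultures received the bone morphogenetic proteins BMP4 and BMP8a before and after a lentivirus, with a virus carrying GFP alone as the control. The labels of the 2 control libraries name neither treatment, so which description applies to them is not settled here. The labels do not say that the 2 libraries of a group came from separate cultures, so P-values measure only the spread between these libraries. The other 6 samples of the series hold miRNA sequencing and were not analysed here.

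Endothelial and blood cells both arise from mesoderm that carries KDR, the receptor through which vascular endothelial growth factor (VEGF) acts on endothelial precursors. ETV2, a transcription factor of the ETS family, starts this programme, and TAL1, the adaptor LMO2 and GATA1 act together on the DNA of blood precursors. CDH5 and PECAM1 are adhesion proteins of the endothelial junction, TEK is the receptor for angiopoietins, and HBZ and HBE1 encode the globins of the first embryonic red cells. Early human mesoderm also forms in BMP-treated hESC cultures, beside amnion-like and PGC-like cells.

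Expression was given as TPM, a unit of transcript abundance corrected for gene length that has the same total in every library. Read depth cannot be recovered from it, so the counting error is unknown, and genes without signal are described as listed at 0. As a check of the labels, DAZL had 0 and 0.0333 TPM in control and 102 and 101 TPM in oeDAZL. Between 16342 and 17239 genes reached 1 TPM in a library. The 16687 genes with a mean of at least 1 TPM were tested with limma on the log2(TPM + 1) scale, on which the change of a low gene is understated.

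Of the 10 genes, 5 passed this filter and were tested, and 3 were listed at 0 in all 4 libraries. KDR had the highest level, with 12.6 and 12.7 TPM in control and 8.39 and 8.23 TPM in oeDAZL. TEK followed with 5.34 and 6.18 TPM in control and 5.57 and 6.72 TPM in oeDAZL. LMO2, at 5.27 and 4.40 TPM in control, had 2.31 and 2.80 TPM in oeDAZL. The ranges over the 4 libraries of KDR, TEK and LMO2 did not overlap, although the lowest TEK value and the highest LMO2 value lay close together. CDH5 came next with 1.92 and 2.49 TPM in control and 2.04 and 2.56 TPM in oeDAZL, a range that overlapped that of LMO2. ETV2 was at 1.79 and 0.954 TPM in control and at 0.679 and 2.21 TPM in oeDAZL, a range that overlapped that of CDH5. Against all tested genes these were low to middle levels, since 41.4% of tested genes had a mean below that of KDR, 31.2% below TEK, 23.6% below LMO2, 15.2% below CDH5 and 6.67% below ETV2.

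GATA1 was listed at 0 and 0.401 TPM in control and at 0.279 and 0.0900 TPM in oeDAZL. TAL1 was at 0.200 and 0.0249 TPM in control and at 0.153 and 0.0195 TPM in oeDAZL. For both factors the spread within a group exceeded the difference between the groups, and neither passed the filter. PECAM1, HBZ and HBE1 were listed at 0 in every library. Of the 64940 genes kept, 31689 were likewise at 0 in all libraries. As a check of the table, 80 ribosomal protein genes were looked at, and 1 of them, RPL10L, was listed at 0 throughout. That check cannot show why a gene of low level is listed at 0.

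**Figure D1:**
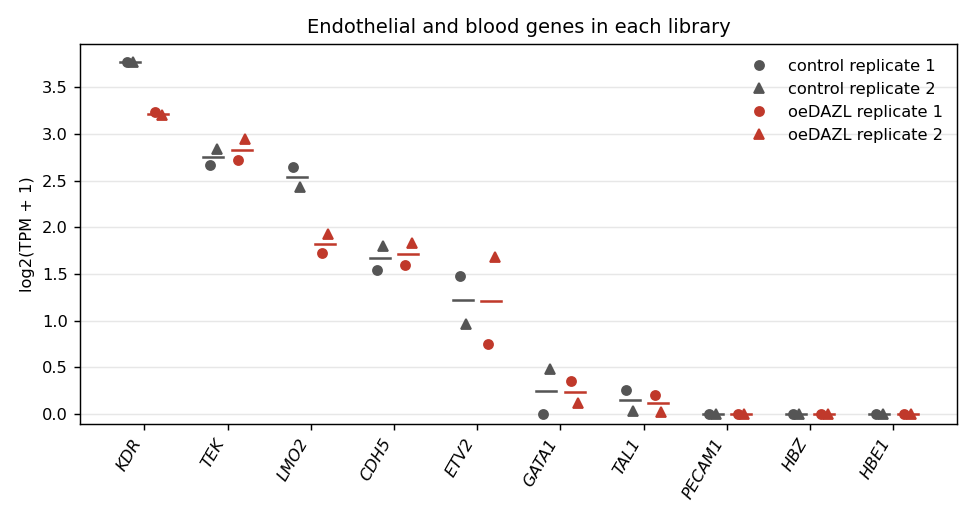
Level of each of the 10 genes in each library on the log2(TPM + 1) scale, ordered by mean TPM. Points are libraries and bars are group means (n = 2); the groups of KDR and LMO2 are separated, those of TEK, CDH5, ETV2, GATA1 and TAL1 overlap, and PECAM1, HBZ and HBE1 lie at 0.

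Across the 5 tested genes, 0 met the thresholds of the study, a fold change of at least 2 with an unadjusted P-value of at most 0.05, in either direction. Over all tested genes this rule called 0.126% as higher and 0.563% as lower in oeDAZL. These were 21 and 94 genes, against 41 and 52 after quantile normalization. At the unadjusted P-value alone, 2 of the 5, KDR and LMO2, were lower and 0 were higher in limma, against 15.2% of all tested genes lower and 5.02% higher. The median log2 fold change of the 5 genes was −0.01, and that of all tested genes was −0.08, with 65.3% of all genes lower in oeDAZL. None of the 5 had a Benjamini-Hochberg adjusted P-value under 0.05 in limma, a level reached by 0.0599% of tested genes. The balance of the background depended on the scaling: 838 genes were higher and 2530 lower at the unadjusted P-value in the deposited TPM, 1660 and 1528 with median-of-ratios scaling, and 1402 and 1514 after quantile normalization.

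KDR, also known as VEGF receptor 2, was at 12.6 ± 0.0610 TPM (SD, n = 2) in control and 8.31 ± 0.112 TPM (SD, n = 2) in oeDAZL. The oeDAZL mean was 65.7% of the control mean, and both oeDAZL libraries lay below both control libraries. On the log2 scale KDR differed by −0.55 (standard error 0.11, 95% interval −0.81 to −0.29, adjusted p = 0.0962 in limma). The value stayed between −0.60 and −0.44 over 12 other ways of processing, in which the adjusted p in limma ranged from 0.0763 to 0.404. With the replicate numbers crossed as a block, a fit added after seeing the data, it was −0.55 with an adjusted p = 0.0389 in limma. That fit put 1089 genes under an adjusted P-value of 0.05, against 10 in the main fit, and the labels do not give its pairing. KDR lies on the reverse strand of chromosome 4 of hg38, from 55078481 to 55125595 in GENCODE 44. A lncRNA on the opposite strand overlaps it and was listed at 0 in all 4 libraries, and the strandedness of the libraries is not given in the sources used here.

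LMO2, the bridging adaptor of the blood transcription complex, was at 4.83 ± 0.613 TPM (SD, n = 2) in control and 2.55 ± 0.344 TPM (SD, n = 2) in oeDAZL. The oeDAZL mean was 52.8% of the control mean, again with no overlap between the groups. On the log2 scale LMO2 differed by −0.71 (standard error 0.18, 95% interval −1.16 to −0.27, adjusted p = 0.130 in limma). When single libraries were left out, the value lay between −0.82 and −0.61, and the unadjusted P-value stayed at or below 0.05 in the 11 such ways of processing that could be fitted for LMO2, in which the adjusted p in limma ranged from 0.092 to 0.524, and with the crossed block the adjusted p in limma was 0.0628. The crossed fit, added after seeing the data, put 1089 genes under an adjusted P-value of 0.05, against 10 in the main fit. LMO2 lies on the reverse strand of chromosome 11, from 33858576 to 33892076, and the lncRNA that overlaps it on the opposite strand was listed at 0. Of all tested genes, 38.4% had both oeDAZL libraries below both control libraries and 16% had both above, so separated groups were common in these libraries. In bulk RNA, fewer cells that carry KDR or LMO2 and less of their RNA per cell cannot be told apart.

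**Figure D2:**
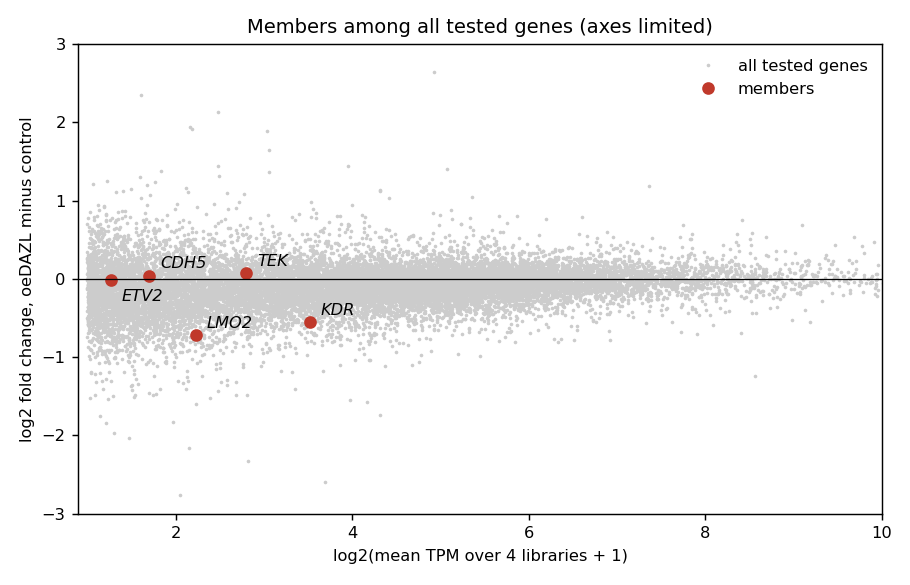
Log2 fold change (oeDAZL minus control) against mean level of the 16687 tested genes in grey, with the 5 tested endothelial and blood genes in red. KDR (−0.55) and LMO2 (−0.71) lie below 0 and TEK, CDH5 and ETV2 lie near 0; 111 genes fall outside the axes.

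The endothelial genes CDH5 and TEK did not follow KDR. CDH5, the adherens junction cadherin of endothelium, had a log2 fold change of 0.04 (95% interval −0.48 to 0.56) with an adjusted p = 0.931 in limma. TEK had a log2 fold change of 0.08 (95% interval −0.31 to 0.46) with an adjusted p = 0.814 in limma. The intervals leave room for changes of either sign, and the sign of both genes turned when control replicate 1 or oeDAZL replicate 2 was left out. The difference between the change of KDR and that of either gene was not tested.

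The members and the gene lists were chosen with earlier results of these data known. Further genes of the endothelium were taken from a fixed list of 20. Of these, 9 passed the filter, 3 were lower and 0 higher at the unadjusted P-value in limma, and 6 did not pass it. At that P-value, 15.2% of all tested genes were lower and 5.02% higher. The median log2 fold change of the 9 genes was −0.29. SOX7, a transcription factor of endothelial and blood precursors, was at 27.9 and 17.03 TPM in control and 10.7 and 10.7 TPM in oeDAZL. The difference of SOX7 was −0.96 on the log2 scale (standard error 0.22, adjusted p = 0.111 in limma), and leaving out control replicate 1 gave −0.62, while leaving out control replicate 2 gave −1.30. With a pseudocount of 0.1 it was −1.02, so that SOX7 met the 2-fold rule in that fit and without control replicate 2. EGFL7, a secreted protein of endothelial cells, was at 25.5 and 25.9 TPM in control and 19.0 and 21.0 TPM in oeDAZL (log2 fold change −0.35). NOS3, the endothelial nitric oxide synthase, was at 5.73 and 4.67 TPM in control and 3.94 and 2.24 TPM in oeDAZL (log2 fold change −0.63). All 3 genes had separated groups with oeDAZL lower, as had 38.4% of all tested genes. EGFL7 no longer passed the unadjusted threshold without oeDAZL replicate 1. NOS3 no longer passed it without control replicate 1, control replicate 2 or oeDAZL replicate 2, nor with either other scaling, without trend or without the filter on level, and its log2 fold change was −0.32 without oeDAZL replicate 2.

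Markers fixed for endothelial cells spanned a wide range. PECAM1 was listed at 0, ERG lay between 0 and 0.254 TPM, ROBO4 between 0 and 0.183 TPM, TIE1 between 0.317 and 0.540 TPM and VWF between 0.304 and 0.751 TPM, whereas CDH5 and TEK were detected in every library at the levels given above. Of the other genes in the list of 20, ESAM, an adhesion protein of endothelial junctions, was between 2.34 and 5.23 TPM, and ENG, a co-receptor for transforming growth factor beta, between 2.49 and 3.01 TPM. The transcription factors SOX17 and FLI1 were between 2.52 and 3.35 TPM and between 1.004 and 1.71 TPM. The log2 fold changes were −0.29 for ESAM, 0.11 for ENG, −0.0036 for SOX17 and 0.08 for FLI1, without passing the unadjusted threshold. ENG had separated groups with oeDAZL higher, as had 16% of all tested genes. CD34 reached at most 0.0381 TPM, and EMCN, a further endothelial surface protein, was listed at 0 in all libraries. ESAM, ENG, SOX17, FLI1, CD34 and EMCN were named after their values were seen. The markers were thus divided, with PECAM1 listed at 0 and CDH5 and TEK detected, and the share of endothelial cells in the cultures was not measured.

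The VEGF system around KDR was covered by a list of 9 ligands, angiopoietins and co-receptors, of which 7 were tested. Of these, 4 were lower and 0 higher at the unadjusted P-value in limma, with a median log2 fold change of −0.19. The shares over all tested genes were 15.2% lower and 5.02% higher. The co-receptor NRP1, which binds VEGF beside KDR, was at 94.6 and 83.6 TPM in control and 57.5 and 58.3 TPM in oeDAZL. NRP1 differed by −0.61 on the log2 scale (standard error 0.08, adjusted p = 0.0885 in limma). When single libraries were left out, the value of NRP1 lay between −0.70 and −0.52. KDR amounted to 13.3 and 15.2 TPM per 100 TPM of NRP1 in control and to 14.6 and 14.1 in oeDAZL, values that overlapped between the groups. The second co-receptor, NRP2, was at 50.8 and 56.5 TPM in control and 46.7 and 47.0 TPM in oeDAZL (log2 fold change −0.19).

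Among the ligands, VEGFA was at 48.1 and 40.9 TPM in control and 38.4 and 33.1 TPM in oeDAZL (log2 fold change −0.31). PGF, the placental growth factor, was at 19.4 and 17.4 TPM in control and 14.2 and 15.5 TPM in oeDAZL (log2 fold change −0.29). VEGFB was at 46.8 and 51.8 TPM in control and 43.8 and 50.2 TPM in oeDAZL, with overlapping groups. The angiopoietins ANGPT1 and ANGPT2, named after their values were seen, also had overlapping groups (log2 fold changes 0.11 and 0.09). VEGFA, PGF and NRP2 no longer passed the unadjusted threshold with either other scaling. VEGFA also lost it without control replicate 1, oeDAZL replicate 2, the trend or the filter on level. PGF lost it without control replicate 1 or either oeDAZL library, NRP2 without control replicate 2, either oeDAZL library, the trend or the mitochondrial genes, and both lost it with the replicate number as a block. NRP1 stayed at or below 0.05 in each case.

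The VEGF receptors related to KDR were FLT1 and FLT4. FLT1, which binds VEGFA and PGF, was at 13.5 and 18.5 TPM in control and 18.4 and 15.1 TPM in oeDAZL, with overlapping groups and a log2 fold change of 0.07 (95% interval −0.34 to 0.49). FLT4, the receptor of lymphatic endothelium, named after its values were seen, was at 2.30 and 1.69 TPM in control and 1.27 and 1.19 TPM in oeDAZL, with separated groups, a log2 fold change of −0.42 (95% interval −0.97 to 0.13, adjusted p = 0.352 in limma) and an oeDAZL mean at 61.6% of the control mean. KDR made up 44.4% and 38.6% of the summed TPM of the 3 receptors in control and 29.9% and 33.6% in oeDAZL. The groups of this share did not overlap, and the smallest exact permutation P-value with 2 libraries in each group is 0.333.

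**Figure D3:**
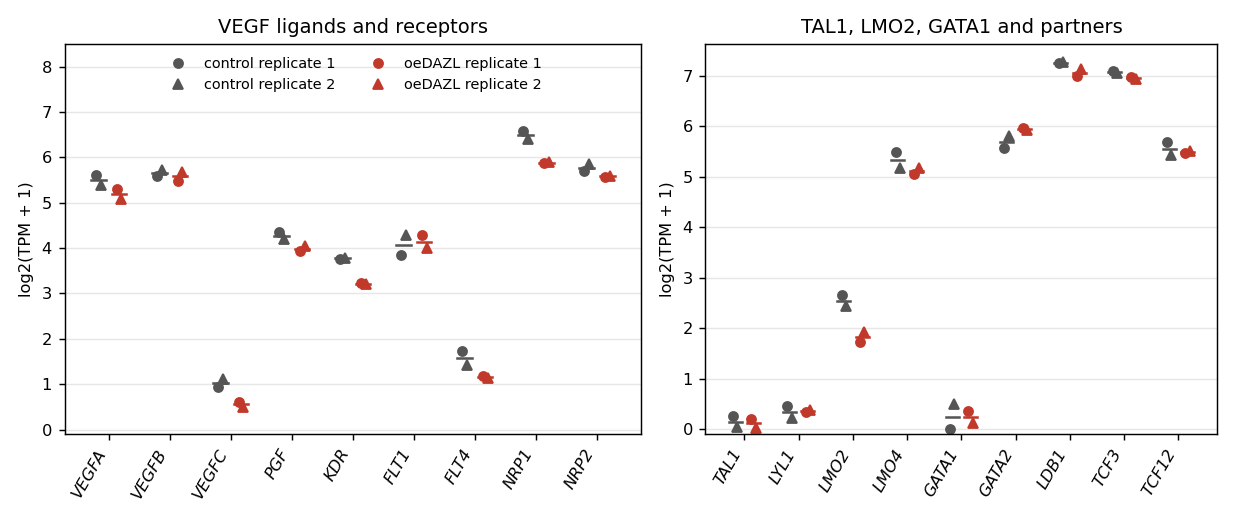
Level in each library, on the log2(TPM + 1) scale, of VEGF ligands, receptors and co-receptors (left) and of TAL1, LMO2, GATA1 and their partner or related genes (right). Points are libraries and bars are group means (n = 2). KDR, NRP1, NRP2, VEGFA, VEGFC, PGF, FLT4, LMO2, LDB1 and TCF3 have separated groups with oeDAZL lower, and GATA2 with oeDAZL higher. FLT1, VEGFB, LMO4 and TCF12 overlap, and TAL1, LYL1 and GATA1 lie near 0 in both groups. Of all tested genes, 38.4% had separated groups with oeDAZL lower and 16% with oeDAZL higher.

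Of the transcription factors, ETV2 showed no separation of the groups. Its log2 fold change was −0.01 (95% interval −0.92 to 0.90), with an adjusted p = 0.993 in limma, and the single libraries of a group differed more than the groups did. Without oeDAZL replicate 2 it was −0.48 and without oeDAZL replicate 1 it was 0.46, so that 1 library set the sign. TAL1 and GATA1 were below the filter on level, and without that filter their log2 fold changes were −0.03 (95% interval −0.36 to 0.30) and −0.0036 (95% interval −0.58 to 0.57).

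For 5 of the 10 genes, namely KDR, TEK, ETV2, TAL1 and GATA1, the RefSeq table of promoters (GRCh38.p14) holds 7 windows of 250 bases before to 50 bases after a start. No window was matched for LMO2, CDH5, PECAM1, HBZ and HBE1. These windows were searched on both strands for words bound by GATA factors (AGATAA, the related word AGATAG, the related word TGATAA and the related word TGATAG), for the ETS word CCGGAA and for the E-box word CAGATG, which do not overlap each other in the stretches shown. A GATA word occurred in 25.0% of 35116 promoter windows, the ETS word in 17.2% and the E-box word in 14.7%. The stretches of 50 bases below, all before the start, are shown because KDR is the receptor whose level differed, and TAL1 and ETV2 are the factors at the head of the programme. Capitals mark a searched word, and each line reads 5′ to 3′ on the strand of the gene.
KDR (chr4:55125596-55125645, reverse strand): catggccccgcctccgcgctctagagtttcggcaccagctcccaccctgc
TAL1 (chr1:47232343-47232392, reverse strand): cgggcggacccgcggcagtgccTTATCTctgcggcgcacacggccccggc
ETV2 (chr19:35641695-35641744, forward strand): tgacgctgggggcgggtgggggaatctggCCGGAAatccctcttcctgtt

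The whole KDR window held none of the searched words. In the TAL1 window shown, the capitals are the reverse complement of AGATAA, beginning at position −35 counted from the start. The TAL1 stretch was centred on this word, while those of KDR and ETV2 end just before the start. In the same TAL1 window the ETS word lies on the opposite strand at position −165. The second TAL1 window and the GATA1 window held none of the searched words. The ETV2 window held the ETS word at position −21 and AGATAA from base 3 after the start, and 1 of the TEK windows held AGATAA. A match to so short a word describes the sequence only.

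Most genes whose products work with TAL1, LMO2 and GATA1 were at much higher levels than these 3 genes themselves, the TAL1 relative LYL1 (0.167 to 0.379 TPM) being an exception. Of a list of 7 partners and related genes, 6 were tested, with 1 lower and 1 higher at the unadjusted P-value in limma. Over all tested genes 15.2% were lower and 5.02% higher. The median log2 fold change of the 6 was −0.16. LDB1, which holds the complex together through LMO2, was at 152 and 153 TPM in control and 127 and 139 TPM in oeDAZL. The log2 fold change was −0.20 (adjusted p = 0.184 in limma), and the unadjusted threshold was no longer passed without control replicate 2, without oeDAZL replicate 1, with median-of-ratios scaling or without trend. LMO2 amounted to 3.46 and 2.87 TPM per 100 TPM of LDB1 in control and to 1.82 and 2.01 in oeDAZL, with separated groups. TCF3, an E-protein that pairs with TAL1, was at 136 and 132 TPM in control and 126 and 121 TPM in oeDAZL, and TCF4, a second E-protein, was at 87.0 and 65.2 TPM in control and 65.2 and 65.1 TPM in oeDAZL.

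GATA2, the relative of GATA1 that acts in blood stem cells and is also used in trophoblast and amnion, was at 46.5 and 54.8 TPM in control and 61.9 and 60.2 TPM in oeDAZL. It was the higher gene of that list, with a log2 fold change of 0.27 (standard error 0.09, adjusted p = 0.193 in limma). Without control replicate 1 the value was 0.15, and the unadjusted threshold was no longer passed there, without either oeDAZL library or without trend. GATA2 thus stood at many times the level of GATA1 in every library.

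Of 16 further genes of blood cells, 7 were tested, and GATA2 was the single gene at or below the unadjusted P-value of 0.05 in limma, with 6 not passing it. The median log2 fold change of the 7 was −0.10, and 5.02% of all tested genes were higher at that P-value. RUNX1, the factor by which blood stem cells emerge from endothelium, was at 34.3 and 33.8 TPM in control and 33.3 and 34.5 TPM in oeDAZL, with a log2 fold change of −0.01 (95% interval −0.18 to 0.17). EPOR, the erythropoietin receptor, was at 16.99 and 12.5 TPM in control and 11.9 and 12.9 TPM in oeDAZL, with overlapping groups. The pan-leukocyte gene PTPRC reached at most 0.0617 TPM, the myeloid factor SPI1 at most 0.129 TPM and the red cell factor KLF1 at most 0.148 TPM. ALAS2, the enzyme of haem synthesis in red cells, was between 0.735 and 1.82 TPM, and ITGA2B, an integrin of platelets, between 2.57 and 2.93 TPM.

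Besides the embryonic globins HBZ and HBE1, 8 other globin genes were looked at, and none passed the filter. HBG1, HBG2 and HBD were listed at 0 in all 4 libraries. HBB, the adult beta globin, was at 1.30 and 0.373 TPM in control and at 0.353 and 0 TPM in oeDAZL. HBQ1 was at 0.539 and 0.243 TPM in control and 0.409 and 0.961 TPM in oeDAZL. HBA2 was at 0.792 and 0.0522 TPM in control and 0.0835 and 0 TPM in oeDAZL. The values of HBB and HBA2 in control rested on replicate 1, and no fold was computed. HBA1 and HBA2, and HBG1 and HBG2, are nearly identical pairs, so with uniquely mapped reads their values are uncertain. In GENCODE 44 the HBE1 gene spans chromosome 11 from 5268345 to 5505652 and overlaps 19 genes, 11 of them coding, whereas HBZ, on chromosome 16 from 142728 to 154503, overlaps HBM.

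**Figure D4:**
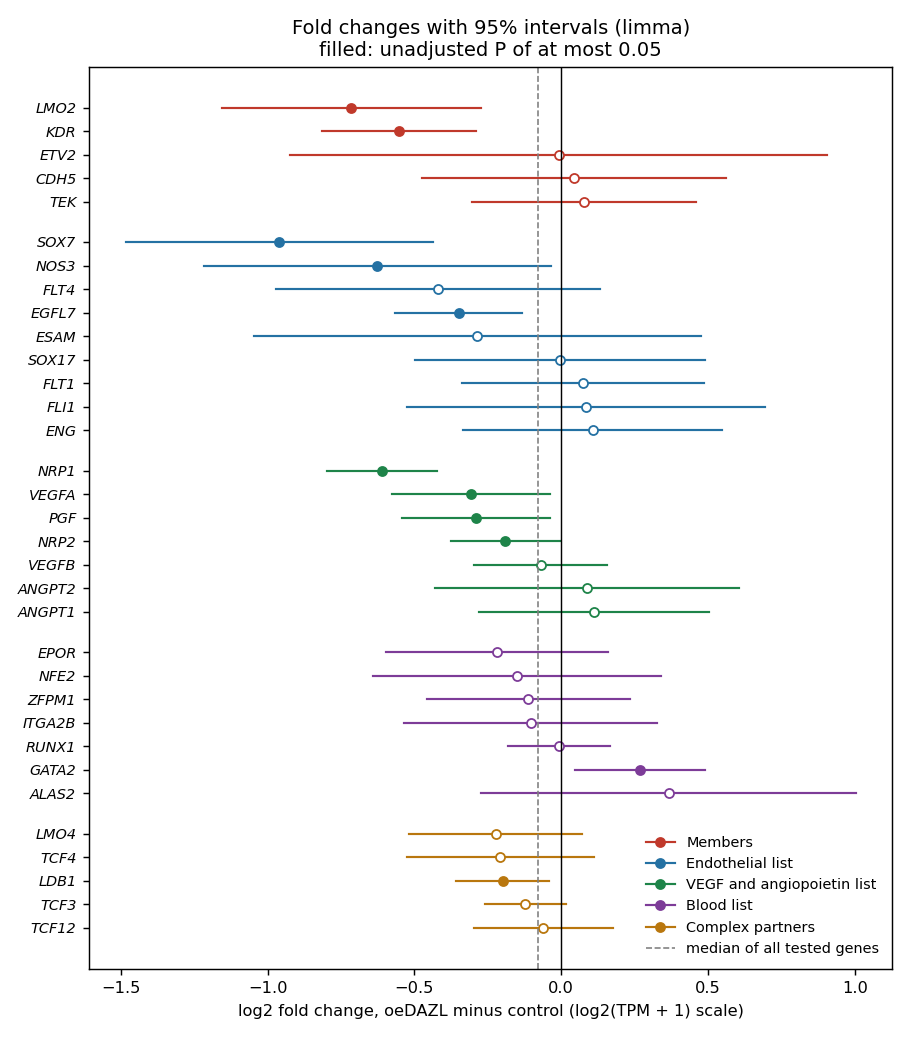
Log2 fold change (oeDAZL minus control) with its 95% interval from limma for the 5 tested members and the tested genes of 4 lists; filled points have an unadjusted P-value of at most 0.05. LMO2, KDR, SOX7, NOS3, EGFL7, NRP1, VEGFA, PGF, NRP2 and LDB1 lie below 0, GATA2 lies above 0, and the dashed line is the median of all tested genes (−0.08).

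Markers of other cell types moved beside KDR and LMO2. Of 8 genes of lateral mesoderm and mesenchyme, 7 were tested, and 4 were lower and 1 higher at the unadjusted P-value in limma. The corresponding shares of all tested genes were 15.2% and 5.02%. The summed level of the 8 genes was 2644 and 2583 TPM in control and 2198 and 2228 TPM in oeDAZL. COL3A1, a collagen of mesenchymal cells, was at 583 and 479 TPM in control and 224 and 220 TPM in oeDAZL. It met the 2-fold rule (log2 fold change −1.25, adjusted p = 0.0344 in limma), which called 0.563% of all tested genes as lower. COL1A1, another collagen, was at 729 and 651 TPM in control and 455 and 486 TPM in oeDAZL, and ACTA2, smooth muscle actin, at 308 and 343 TPM and at 210 and 221 TPM. PDGFRB, a growth factor receptor of mesenchyme, was at 48.8 and 52.7 TPM in control and 44.5 and 40.3 TPM in oeDAZL. All 4 had separated groups with oeDAZL lower, as had 38.4% of all tested genes. HAND1, a factor of lateral mesoderm and amnion, was instead higher, at 958 and 1042 TPM in control and 1250 and 1247 TPM in oeDAZL. PDGFRA was between 11.3 and 14.6 TPM and TBX20 between 1.67 and 2.73 TPM. FOXF1, which defines lateral plate mesoderm, stayed between 0.226 and 0.829 TPM.

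Of 8 genes of amnion and trophoblast, 7 were tested, with 3 lower and 0 higher, against 15.2% and 5.02% of all tested genes. The sums of 2632 and 2398 TPM in control and 2397 and 2446 TPM in oeDAZL overlapped. The lower genes were CGA, ISL1 and VTCN1. CGA, the common subunit of chorionic gonadotropin, was at 15.5 and 10.4 TPM in control and 4.34 and 5.82 TPM in oeDAZL. It met the 2-fold rule (log2 fold change −1.18, adjusted p = 0.0896 in limma), which called 0.563% of all tested genes as lower. ISL1, a factor of amnion, was at 80.5 and 55.2 TPM in control and 45.4 and 48.7 TPM in oeDAZL, and VTCN1 was at 283 and 240 TPM and at 196 and 202 TPM. The abundant markers GABRP (1208 to 1408 TPM), KRT7 (567 to 675 TPM), TFAP2A (149 to 170 TPM) and GATA3 (98.4 to 106 TPM) did not pass the unadjusted threshold. CGB5, a subunit of the same hormone, was between 0.330 and 1.97 TPM. Of 6 genes of pluripotent cells, 5 were tested, with 0 lower and 2 higher, against 15.2% and 5.02% of all tested genes. The 2 were POU5F1 and TDGF1, and the sums were 546 and 495 TPM in control and 497 and 477 TPM in oeDAZL. POU5F1 was at 13.6 and 10.6 TPM in control and 22.4 and 20.4 TPM in oeDAZL, and TDGF1 was at 5.05 and 8.26 TPM in control and 14.1 and 10.7 TPM in oeDAZL. LIN28A was the most abundant, at 476 and 428.5 TPM in control and 417 and 401 TPM in oeDAZL. DPPA4 was at 45.3 and 44.2 TPM in control and 40.5 and 42.4 TPM in oeDAZL. SOX2 was at 5.16 and 2.57 TPM in control and 2.16 and 2.04 TPM in oeDAZL. These 3 had separated groups with oeDAZL lower, as had 38.4% of all tested genes, without passing the unadjusted threshold. NANOG was between 0.432 and 0.813 TPM. The part of these cell types in the levels of KDR and LMO2 was not tested.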

How the data were processed

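Total RNA of H9-derived cells was sequenced in 2 control and 2 oeDAZL libraries. The authors trimmed reads with Trim Galore (0.6.4 in the processing notes), mapped them to hg38 with HISAT2 2.1.0, kept unique alignments, and deposited TPM values from StringTie 2.1.4 with replicates kept apart. The annotation release is not given in the sources used here. Of 65003 entries, 45 pseudoautosomal Y copies and 18 repeated entries were left out. Where a symbol had several entries (2 for SOX7 and PTPRC, 7 for POU5F1), the GENCODE 44 entry with the highest mean TPM was used. Genes averaging at least 1 TPM were fitted on log2(TPM + 1) with limma 3.58.1 in R 4.3.3 with a trend and no covariate, after the procedure was tested on simulated data. The thresholds are those of the study, which used a count model on read counts not used here. TPM keeps no depth, so precision comes from the spread of n = 2 libraries per group. In limma, the spread of each gene is moderated towards that of genes at a similar level. The members and gene lists were chosen with earlier results of these data known. Named genes are the members, DAZL, list genes passing the unadjusted threshold of 0.05 (up to 6), the 3 highest of each list, and the fixed cell type markers. Further list genes were named after their values were seen. Alternatives were a pseudocount of 0.1, no filter, a filter at 5 TPM, median-of-ratios scaling, quantile normalization, TPM without mitochondrial genes, a replicate block, limma without trend, and each library left out. Positions are from GENCODE 44 and promoters from RefSeq. An item of the marker lists is not reported here.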

Additional observations from a re-analysis of the deposited data

How the results depend on the processing

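KDR and LMO2 were the members at or below an unadjusted P-value of 0.05 in limma under every alternative, except that LMO2 was not tested with the filter at 5 TPM, which left 1 member. No member met the 2-fold rule under any alternative.

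The counts over all genes moved. Genes called higher and lower, 21 and 94, became 55 and 267 when the pseudocount was 0.1, 6 and 23 under the filter at 5 TPM, which tests fewer genes, and 41 and 52 after quantile normalization. With each library left out they were 35 to 87 and 85 to 235, both highest without control replicate 2; a group reduced to 1 library is assumed to vary like the other. At the unadjusted P-value, 838 higher and 2530 lower genes became 1660 and 1528 with median-of-ratios scaling, 1402 and 1514 after quantile normalization, and 357 to 1341 and 1226 to 3295 with each library left out. The 10 genes that limma called at an adjusted P-value of 0.05 became 1 without the filter or without trend, 3 with either scaling, and 2 to 673 with each library left out (673 without control replicate 2). In the main fit, 5.02% of all tested genes were higher and 15.2% lower at the unadjusted P-value. Of the list genes, 1 was higher and 8 were lower at that P-value. None was higher without trend, and 0 to 1 with a library left out, while 3 were lower with median-of-ratios scaling, 4 after quantile normalization, 5 without trend and 4 to 9 with a library left out. Over all tested genes the lower ones also fell, from 2530 to 1528 with median-of-ratios scaling and 1514 after quantile normalization. Apart from the construction of fewer genes or libraries, the cause was not tested.

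The direction turned only for members near 0. With a library left out, CDH5 ranged from −0.0857 to 0.171, TEK from −0.0382 to 0.194 and ETV2 from −0.477 to 0.459, and ETV2 was 0.0387 with median-of-ratios scaling and 0.167 after quantile normalization.

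The deviations of same-numbered libraries correlated at −0.104, so libraries sharing a number did not deviate together. With the replicate number as a block, limma called 4 genes at the adjusted threshold, and 2 members were lower at the unadjusted one. The crossed pairing, chosen after seeing the data, gave 28 higher and 107 lower calls, 1089 genes at the adjusted threshold, and 2 members lower at the unadjusted one, of which 1, KDR, also passed the adjusted threshold.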
